A study of Mus musculus with 6 samples.

Results

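Coenzyme Q, or ubiquinone, is a lipid of the inner mitochondrial membrane that carries electrons from dehydrogenases to complex III. It is made by joining a long isoprenoid tail to an aromatic ring and then modifying that ring in several steps, which in animals take place inside mitochondria in a complex of Coq proteins. Brown fat is rich in mitochondria, burns fuel for heat through the uncoupling protein Ucp1, and passes the electrons of fatty acid oxidation to this pool.

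The transcripts described here belong to 10 genes of coenzyme Q synthesis: Pdss1, Pdss2, Coq2, Coq3, Coq4, Coq5, Coq6, Coq7, Coq8a and Coq9. They were chosen by name, and their transcripts by the gene to which the GENCODE M21 annotation assigns them. These are 10 of 21730 genes with at least 1 read. Of the 71 transcripts annotated to them, 55 had a read, among 59371 matched transcripts with a read in all. All 10 genes passed the filter on low counts and were tested.

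The samples were 6 libraries of interscapular brown adipose tissue, each from 1 male wild type C57BL/6N mouse 20 weeks old. In the cold group, 3 mice (numbers 4, 11 and 15) had been housed singly at 4 °C for 24 h. The control group (ctrl; mice 2, 9 and 14) was kept at 22 to 24 °C. The labels do not say whether control mice were housed singly, so cold and single housing cannot be told apart. Poly(A) RNA was read by Oxford Nanopore direct cDNA sequencing, which uses no PCR, and each library ran on 2 flow cells. The labels' account of the extraction mentions eWAT, another depot, where the tissue was homogenised; the tissue given for each sample is brown fat, and that was followed.

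Libraries held 1657985 to 2238056 reads, so 3 reads make 1.34 to 1.81 CPM, the reads of a gene relative to the size of its library. All other CPM given here use library sizes after TMM scaling. All 11 brown adipocyte markers had reads. Of the 10 tested, 3 rose in the cold, 1 fell and 6 did not pass the test. Among all tested genes 10% were called in each direction. Ucp1 stood at 10666 ± 840 CPM in ctrl and 13810 ± 125 CPM in cold (SD, n = 3 mice each). Of 7 white adipocyte markers 5 had reads, summing to 66.0 to 105 CPM in ctrl and 125 to 151 CPM in cold, and Hoxc9 and Hoxc10 had none. Of the 4 tested, 2 rose in the cold: Retn from 59.6 ± 8.52 to 105 ± 19.3 CPM and Nnat from 3.51 ± 1.55 to 11.9 ± 5.04 CPM (SD, n = 3 mice each; edgeR adjusted p = 5.6e-05 and 0.002). Their part in the results below was not tested. Skeletal muscle markers summed to 96.0, 417 and 667 CPM in ctrl mice 2, 9 and 14, and to 298, 1470 and 3667 CPM in cold mice 4, 11 and 15. All 12 tested muscle genes had higher values in cold, with a median log2 fold change of 2.21, and none passed the test.

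Of the 10 genes, Pdss1 and Coq3 rose in the cold, Coq6 fell and the other 7 did not pass the test (edgeR's quasi-likelihood test, Benjamini-Hochberg adjusted over all 8684 tested genes, called at 0.05). Among all tested genes 20.0% were called, 10% higher (869 genes) and 10% lower (870 genes), so 3 of 10 is near the background. Scaling by library totals alone turned the split over all genes into 1086 higher and 630 lower. The members had a median log2 fold change of -0.03, beside 0.00 over all tested genes, and 5 of them had positive values. Their summed level was 1065, 1060 and 1126 CPM in ctrl mice 2, 9 and 14 and 1085, 1179 and 1017 CPM in cold mice 4, 11 and 15. The summed levels of the groups overlapped. In bulk tissue, fewer cells of a type and less RNA per cell cannot be told apart.

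**Figure D1:**
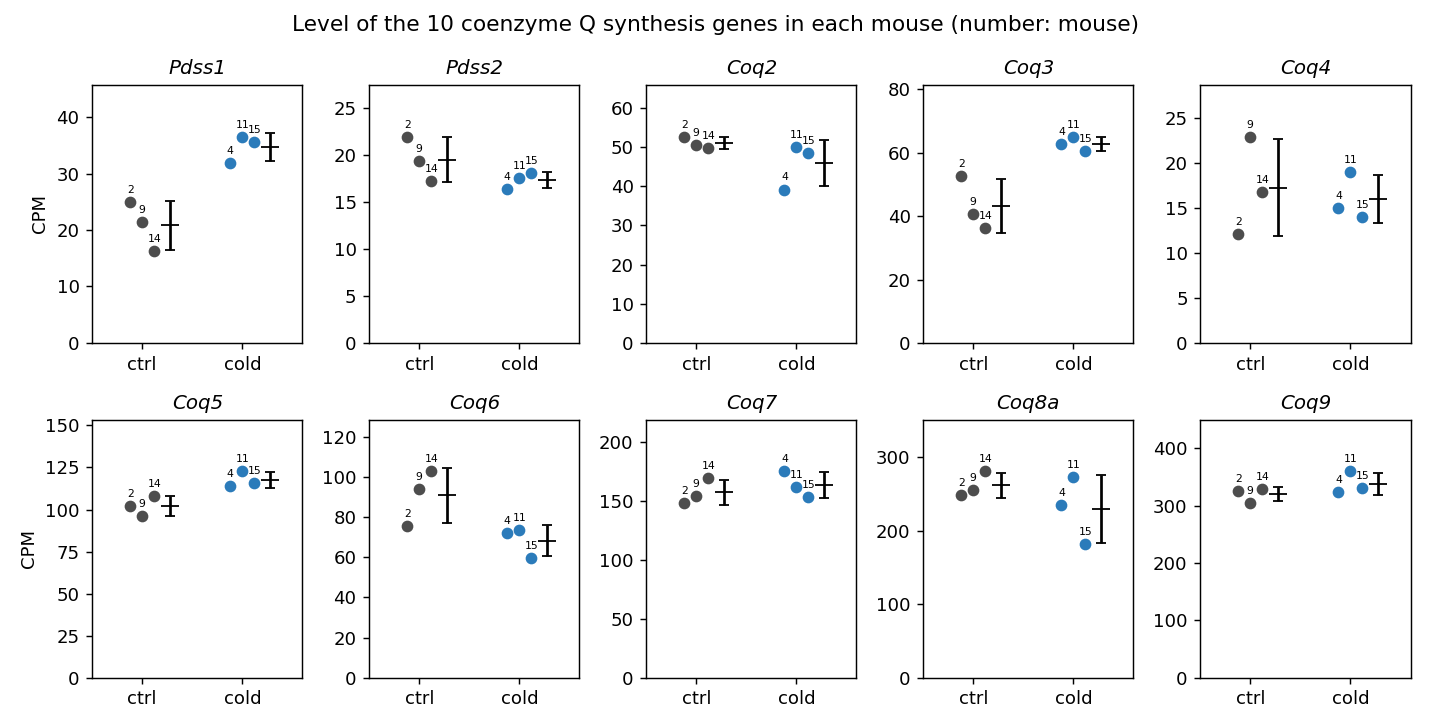
Level of each of the 10 genes in CPM (vertical axes, starting at 0, scaled per gene) in the 3 ctrl and 3 cold mice; dots are mice with their numbers, and the bars give mean ± SD. The cold mice sit above all ctrl mice for Pdss1 (31.9 to 36.6 against 16.3 to 24.9) and Coq3, and below them for Coq6.

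Pdss1 and Pdss2 encode the subunits of the polyprenyl diphosphate synthase, which builds the isoprenoid tail. Pdss1 (ENSMUSG00000026784, chromosome 2, 22895522 to 22940266, plus strand, GRCm38) stood at 24.9, 21.4 and 16.3 CPM in ctrl mice 2, 9 and 14 and at 31.9, 36.6 and 35.5 CPM in cold mice 4, 11 and 15. Every cold mouse was above every ctrl mouse. The means were 20.9 ± 4.33 and 34.7 ± 2.46 CPM (SD, n = 3 mice each). This was a log2 fold change of 0.74 (SE 0.18, adjusted p = 0.00232), with a 95% interval from 1.31- to 2.15-fold. The values rest on 43, 42 and 35 ctrl reads and 66, 73 and 61 cold reads.

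Pdss2 (chromosome 10, 43221486 to 43464882, plus strand) showed no such difference. Its levels were 22.0, 19.4 and 17.2 CPM in ctrl mice 2, 9 and 14 and 16.4, 17.5 and 18.1 CPM in cold mice 4, 11 and 15. The groups overlapped, and the log2 fold change was -0.17 (SE 0.21, adjusted p = 0.642, 95% interval -0.58 to 0.25). The interval admits a fall by 0.58 on the log2 scale, so a moderate decrease was not excluded at 31 to 38 reads per mouse.

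The number of Pdss1 reads for each Pdss2 read was 1.13, 1.11 and 0.946 in ctrl mice 2, 9 and 14 and 1.94, 2.09 and 1.97 in cold mice 4, 11 and 15. The ratio compares the 2 genes' read counts, without a correction for length. Its mean was 1.06 ± 0.10 in ctrl and 2.00 ± 0.077 in cold (SD, n = 3 mice each), and the groups did not overlap. An exact two-sided permutation test gave p = 0.1, the smallest that 3 mice against 3 allow. The difference in the ratio was 1.33 on flow cell 1 and 0.586 on flow cell 2, which were computed after the data had been seen.

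Coq2, the transferase that attaches the tail to the ring precursor (chromosome 5, 100654723 to 100675140, minus strand), stood at 52.7, 50.5 and 49.8 CPM in ctrl mice 2, 9 and 14. The cold mice 4, 11 and 15 had 39.1, 50.1 and 48.3 CPM. Mouse 4 was the lowest, and the groups overlapped, for a log2 fold change of -0.15 (SE 0.13, adjusted p = 0.469, 95% interval -0.43 to 0.12).

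Among the ring-modifying enzymes, Coq3 rose and Coq6 fell. Coq3, the O-methyltransferase of the pathway (chromosome 4, 21879673 to 21912162, plus strand), had 52.7, 40.8 and 36.3 CPM in ctrl mice 2, 9 and 14 and 62.8, 65.1 and 60.6 CPM in cold mice 4, 11 and 15. The cold values lay within a narrow range above all ctrl values. Its mean rose from 43.3 ± 8.45 to 62.8 ± 2.28 CPM (SD, n = 3 mice each). This was a log2 fold change of 0.55 (SE 0.13, adjusted p = 0.00328), with a 95% interval from 1.21- to 1.77-fold.

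Coq6, a flavin-dependent monooxygenase that hydroxylates the ring (chromosome 12, 84361657 to 84373796, plus strand), stood at 75.8, 93.9 and 103 CPM in ctrl mice 2, 9 and 14. Cold mice 4, 11 and 15 had 72.0, 73.6 and 59.4 CPM. All cold mice were below all ctrl mice, with a gap of a few CPM between ctrl mouse 2 and cold mouse 11. The mean went from 90.8 ± 13.8 to 68.3 ± 7.79 CPM (SD, n = 3 mice each). The log2 fold change was -0.41 (SE 0.12, adjusted p = 0.0174, 95% interval -0.67 to -0.16). The call ended without ctrl mouse 14 (adjusted p = 0.122), without cold mouse 15 (0.0913), on flow cell 2 alone (0.269), with library totals only (0.0541) and in DESeq2 (0.121). Pdss1 and Coq3 were called under all 16 alternatives, though some lay close to the threshold. Their largest adjusted p over these edgeR and DESeq2 fits were 0.0423 and 0.0497. The muscle covariate was the sum of the muscle markers' log2 CPM, centred and scaled. It was -3.14, -0.70 and 0.10 in ctrl mice 2, 9 and 14, and -1.19, 1.59 and 3.33 in cold mice 4, 11 and 15. With this covariate, the log2 fold changes of Pdss1, Coq3 and Coq6 were 0.78, 0.68 and -0.46 (edgeR adjusted p = 0.0164, 0.00517 and 0.0432).

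Coq5, the C-methyltransferase (chromosome 5, 115279666 to 115296972, plus strand), had 102, 95.9 and 108 CPM in ctrl mice 2, 9 and 14 and 114, 123 and 116 CPM in cold mice 4, 11 and 15. The groups did not overlap, but the test did not call the difference (log2 fold change 0.21, SE 0.10, adjusted p = 0.167, 95% interval -0.00 to 0.41). Pdss1, Coq3, Coq5 and Coq6 were thus 4 of 10 members without overlap between the groups, beside 35.1% of all tested genes. Coq7, the di-iron hydroxylase of a late step (chromosome 7, 118509659 to 118533356, minus strand), had 149, 155 and 169 CPM in ctrl mice 2, 9 and 14 and 175, 162 and 154 CPM in cold mice 4, 11 and 15. The groups overlapped over most of their range (log2 fold change 0.05, SE 0.10, adjusted p = 0.759, 95% interval -0.14 to 0.25).

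The remaining members support the enzyme complex. Coq9, a lipid-binding partner of Coq7 (chromosome 8, 94838321 to 94854895, plus strand), was measured with 3824 reads, the most of the set. It had 326, 305 and 329 CPM in ctrl mice 2, 9 and 14 and 324, 360 and 331 CPM in cold mice 4, 11 and 15. Only cold mouse 11 stood clearly above the ctrl mice (log2 fold change 0.08, SE 0.08, adjusted p = 0.552, 95% interval -0.08 to 0.24).

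Coq8a, an atypical kinase-like ATPase (chromosome 1, 180165238 to 180199602, minus strand), had 248, 256 and 281 CPM in ctrl mice 2, 9 and 14 and 235, 273 and 181 CPM in cold mice 4, 11 and 15. Cold mouse 15, which also had the most muscle marker reads, was the lowest and widened the spread in cold to ± 45.9 CPM, against ± 16.9 CPM in ctrl. The log2 fold change was -0.19 (SE 0.12, adjusted p = 0.309, 95% interval -0.44 to 0.06), and -0.14 with the muscle markers as a covariate (adjusted p = 0.621). Leaving out single mice gave values from -0.33 without cold mouse 11, which was called (edgeR adjusted p = 0.0324), to -0.04 without cold mouse 15 (0.822).

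Coq4, a protein that the complex needs for its assembly (chromosome 2, 29787493 to 29797935, plus strand), was the thinnest, with 195 reads in all. It had 12.2, 23.0 and 16.8 CPM in ctrl mice 2, 9 and 14 and 15.0, 19.0 and 14.0 CPM in cold mice 4, 11 and 15. The ctrl mice spanned the whole range of the cold mice. The log2 fold change was -0.12 (SE 0.23, adjusted p = 0.79), and its 95% interval ran from a fall to 0.662-fold to a rise of 1.28-fold.

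**Figure D2:**
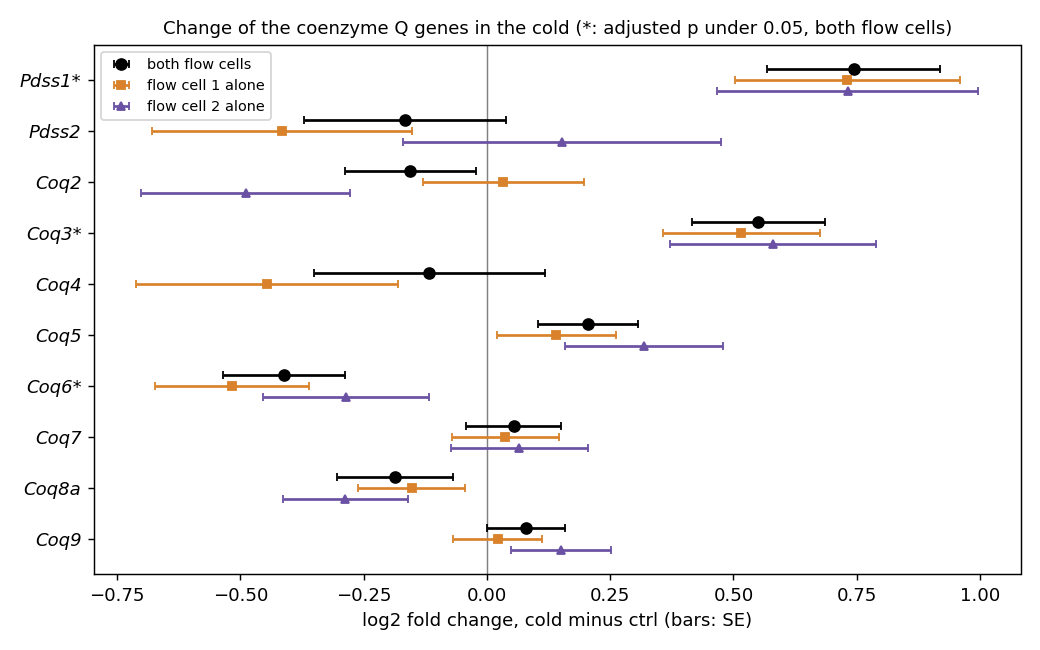
Log2 fold change of each gene, cold minus ctrl (horizontal axis, bars are SE), from both flow cells together and from each alone; Coq4 was not tested on flow cell 2. Pdss1 lies at 0.73 on both flow cells and Coq3 at 0.52 and 0.58, while Coq6 lies at -0.52 on flow cell 1 and -0.29 on flow cell 2, and Coq2 and Pdss2 change sign between flow cells.

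Some members share exons with a gene on the opposite strand, and the use of strand in the counting is not given in the sources used here. Pdss1 shares 194 exon bases with Abi1, for which 258 reads were counted beside 320 for Pdss1. Abi1 itself had a log2 fold change of 0.28 (SE 0.18, edgeR adjusted p = 0.323). Coq4 shares 921 bases with Trub2 (131 reads), Coq8a 366 with Cdc42bpa (259 reads), Coq6 128 with Fam161b (47 reads) and Coq9 38 with Ciapin1 (1489 reads). Pdss1 also overlaps A130006I12Rik (4 reads). Reads of Pdss1, Coq4, Coq6, Coq8a and Coq9 in these stretches could have been counted on the partner, or the reverse. The counts of these 5 members are uncertain to that extent.

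The counts per transcript show to which RNAs the reads of each gene were assigned. How reads that fit several transcripts were counted is not given, so the shares of transcripts are uncertain to that extent. Of the members' transcripts 15 were tested, and 2 rose, Pdss1-201 and Coq3-201, while 0 fell, beside 16.9% called among 11699 tested transcripts (8.68% higher and 8.22% lower). Pdss1-201 had 36, 34 and 28 reads in ctrl mice 2, 9 and 14 and 54, 65 and 53 reads in cold mice 4, 11 and 15 (log2 fold change 0.81, SE 0.20, edgeR adjusted p = 0.00242). It held 84.4% of the gene's reads. Coq3 was read as a single transcript, Coq3-201 (log2 fold change 0.54, SE 0.14, edgeR adjusted p = 0.00513), which was no longer called in DESeq2 (0.0664), on flow cell 2 alone (0.0571) or without ctrl mouse 14 (0.0766).

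The main transcripts of the members that were not called as genes were not called either. Coq2-201, Coq4-201, Coq7-201, Coq9-201 and Pdss2-201 had adjusted p of 0.441, 0.765, 0.781, 0.59 and 0.634, and Coq5-201 had 0.146 (edgeR's quasi-likelihood test). With library totals only, Coq5-201 was called higher (log2 fold change 0.31, edgeR adjusted p = 0.0428). For most members, nearly all reads fell on protein-coding transcripts: 100% in Coq3, 99.6% in Coq2, 99.5% in Coq8a, 99.1% in Coq9, 96.8% in Coq7 and 96.6% in Coq5. Pdss2 had 94.4% and Pdss1 90.6%, where the retained intron transcript Pdss1-203 took 23 reads. Coq4 had 79.0%, with 33 reads on Coq4-204, a transcript annotated as a target of nonsense-mediated decay, the pathway that degrades RNAs with an early stop codon. In Coq7 the retained intron transcript Coq7-204 had 49 reads.

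Coq6 stood apart in its makeup: 45.8% of its 934 reads fell on protein-coding transcripts, 31.3% on nonsense-mediated decay, 15.8% on retained intron and 7.07% on processed transcripts. Its most-read transcript was Coq6-209 with 292 reads, annotated for nonsense-mediated decay. The protein-coding Coq6-201 and Coq6-202 held 27.5% and 18.0%, and the retained intron Coq6-204 held 13.1%. In Coq6-209, exon 8 begins 47 bases further upstream than in Coq6-201, at chromosome 12, 84371404 to 84371450 (GRCm38, plus strand). The junction of both transcripts is shown here because this extension carries the stop codon that separates them. Capitals mark the 47 added bases, flanked by 24 bases on each side, from the GENCODE M21 transcripts, 5′ to 3′.
Coq6-209: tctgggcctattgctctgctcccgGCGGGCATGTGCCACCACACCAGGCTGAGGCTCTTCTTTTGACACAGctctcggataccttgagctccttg
Coq6-201: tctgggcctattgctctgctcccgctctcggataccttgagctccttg

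The extension leaves a remainder of 2 bases against the reading frame and holds an in-frame TGA at 84371443 to 84371445. Coq6-209 therefore has 282 codons before its stop where Coq6-201 has 476, and 4 exon junctions follow the stop. Coq6-209 took 28.2%, 30.4% and 32.1% of the gene's reads in ctrl mice 2, 9 and 14 and 36.9%, 25.9% and 34.3% in cold mice 4, 11 and 15. The cold mice lay on both sides of the ctrl range. The means were 30.3% ± 1.95 and 32.4% ± 5.78 (SD, n = 3 mice each; exact two-sided permutation test p = 0.6).

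All 5 tested Coq6 transcripts had negative fold changes. Coq6-209 had a log2 fold change of -0.35 (SE 0.19, edgeR adjusted p = 0.234) and Coq6-201 of -0.44 (SE 0.21, edgeR adjusted p = 0.156). Coq6-202 had -0.37, Coq6-204 -0.42 and Coq6-205 -0.67, with SE of 0.23, 0.27 and 0.36. None of the 5 was called alone, and Coq6-209 stood at 0.037 on flow cell 2 alone. How reads that fit several transcripts were counted is not given, so the part of each transcript in the fall of the gene is uncertain.

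**Figure D3:**
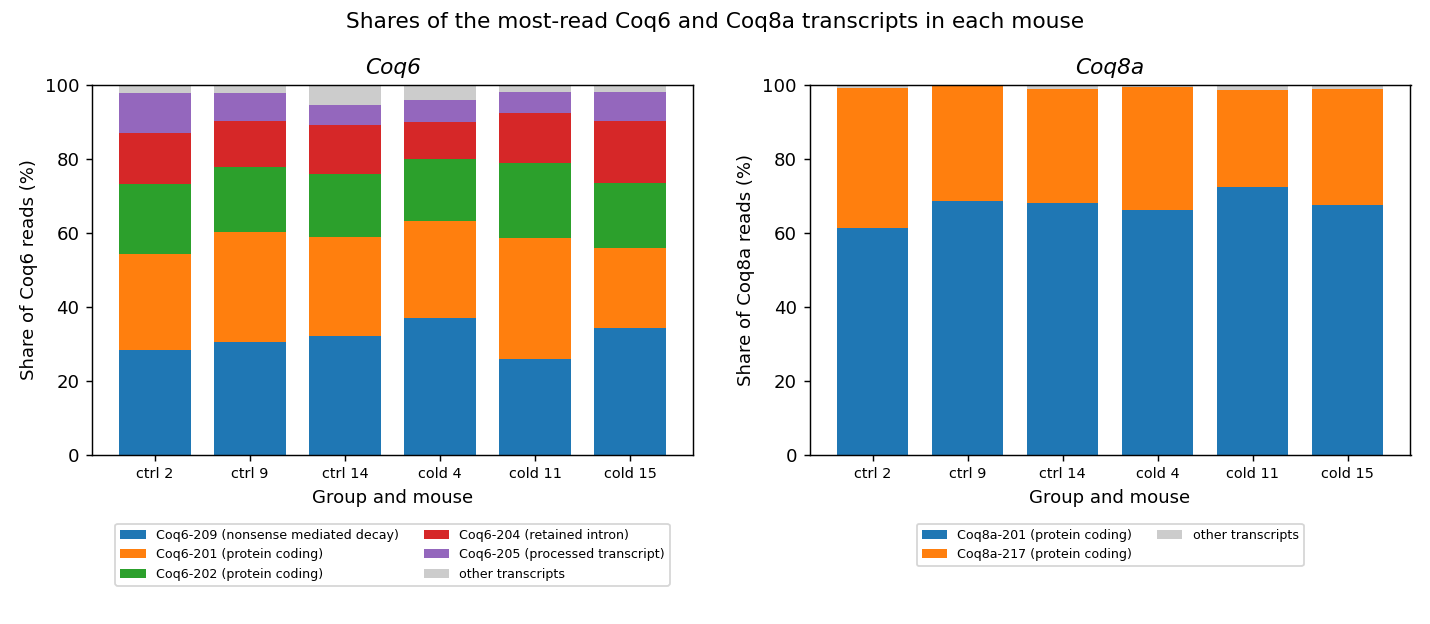
Share of reads, in percent, on the most-read transcripts of Coq6 (5 transcripts) and Coq8a (2 transcripts) in each of the 6 mice; grey is the rest. Coq6-209 holds 25.9% to 36.9% of Coq6 reads, and the cold mice span the ctrl mice; Coq8a-201 is the larger of its pair in every mouse.

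Coq8a reads fell mainly on Coq8a-201 and Coq8a-217, which have separate first exons, and a read that reaches neither exon may fit both. Coq8a-201 held 67.6% of its reads (1942) and Coq8a-217 31.6% (907), and both are annotated as protein coding. RefSeq (GRCm38.p6) places their start sites at 180196020 and 180193485 on the minus strand of chromosome 1. The sequences upstream of the starts are shown for the promoters that these transcripts would use. Bases that overlap an annotated exon are left out, so the stretches differ in length and position. Capitals mark GGGCGG or CCAAT, on either strand.
Coq8a first start, chr1:180196076-180196270, minus strand: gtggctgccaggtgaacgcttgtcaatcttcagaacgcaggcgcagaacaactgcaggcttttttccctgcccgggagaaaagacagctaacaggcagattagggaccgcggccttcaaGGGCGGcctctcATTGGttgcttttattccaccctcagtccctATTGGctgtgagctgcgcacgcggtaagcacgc
Coq8a second start, chr1:180193663-180193735, minus strand: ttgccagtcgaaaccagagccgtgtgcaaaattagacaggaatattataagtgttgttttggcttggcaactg

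The first stretch has 195 bases and ends 56 bases before its start, and the second has 73 bases and ends 178 bases before. The first stretch holds GGGCGG once and ATTGG, the reverse complement of CCAAT, at 2 places, and the second holds none of the motifs searched. A CCAAT 3 to 7 bases before the first start lies in the part left out. The full window of 250 bases at the second start also held none of the motifs. As a share of the 2 transcripts, Coq8a-217 took 38.3%, 31.1% and 31.3% in ctrl mice 2, 9 and 14 and 33.5%, 26.5% and 31.8% in cold mice 4, 11 and 15. The groups overlapped (33.5% ± 4.08 against 30.6% ± 3.67, SD, n = 3 mice each; exact two-sided permutation test p = 0.6). Coq8a-217 had 163, 155 and 187 reads in ctrl and 162, 142 and 98 in cold, in the same order of mice (log2 fold change -0.34, SE 0.13, edgeR adjusted p = 0.0601). Without cold mouse 4 it was called at -0.44 (edgeR adjusted p = 0.0421), while it was -0.22 without cold mouse 15 (0.323), -0.20 on flow cell 2 alone (0.507) and -0.16 with the muscle covariate (0.563). Coq8a-201 had 263, 344 and 410 reads in ctrl and 321, 394 and 210 in cold (log2 fold change -0.14, SE 0.15, edgeR adjusted p = 0.616).

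Transcript usage, the share of a gene's transcripts, could be tested for 2 members, Coq6 and Coq8a. It was called for 0 of them by edgeR's diffSpliceDGE, and the unadjusted Simes p were 0.974 and 0.637, so 0 were under 0.05 unadjusted. Among all 2568 genes tested for usage, 0.195% were called.

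RefSeq gave 11 promoter windows of 250 bases for 9 members. AAGGTCA, a sequence bound by the oestrogen-related receptors, was found on either strand in 1 of them, that of Pdss1, and in 4.08% of 32851 promoters. The part of the Pdss1 window free of exons is shown because it holds this match, in capitals, 242 to 248 bases before the start.
Pdss1 promoter, chr2:22895272-22895320, plus strand: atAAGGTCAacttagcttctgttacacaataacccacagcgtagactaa

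The other motifs were also searched on both strands. The cAMP response core TGACGTC was in 0 of the 11 windows and in 2.78% of all promoters. The ETS site CCGGAAG was in 1 (Pdss2; 6.91% of all), and the NRF1 core GCATGCG in 1 (Coq2; 3.02% of all). GGGCGG was in 5 windows, of Coq3, Coq6, Coq8a, Coq9 and Pdss2, beside 32.7% of all, and CCAAT in 3, of Coq6, Coq7 and Coq8a, beside 33.9% of all; in Coq6 a match of each overlaps. These matches describe letters only.

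Other genes tied to coenzyme Q include regulators, chaperones and head group enzymes. Of 10 tested, 2 rose, 1 fell and 7 did not pass the test, beside 10% of all tested genes in each direction. Their median log2 fold change was -0.11. Hpdl, a dioxygenase-like protein placed in the making of the ring precursor, had 4.63, 6.12 and 8.84 CPM in ctrl mice 2, 9 and 14 and 19.8, 16.0 and 26.2 CPM in cold mice 4, 11 and 15. Every cold mouse was well above every ctrl mouse (3.06-fold, log2 fold change 1.61, SE 0.27, edgeR adjusted p = 4.49e-05). Pptc7, a mitochondrial phosphatase linked to coenzyme Q synthesis, rose from 40.3 ± 11.8 to 65.1 ± 3.48 CPM (SD, n = 3 mice each; edgeR adjusted p = 0.00123). Coq10a, which binds the finished lipid, fell from 103 ± 7.47 to 81.6 ± 8.01 CPM (SD, n = 3 mice each; edgeR adjusted p = 0.03), and was called in 7 of 16 alternatives. Its log2 fold change of -0.34 became -0.47 on flow cell 1 alone (0.0114) and -0.07 on flow cell 2 alone (0.863). It was also not called without any 1 of ctrl mice 2 and 14 and cold mice 11 and 15, with the muscle covariate, with library totals only, without the filter on low counts or in DESeq2.

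The mevalonate pathway supplies the isoprenoid units. Of its 8 tested genes 4 fell and 1 rose, beside 10% of all tested genes in each direction, with a median log2 fold change of -0.36. Mvk and Pmvk, the kinases of mevalonate and phosphomevalonate, went from 13.1 ± 1.62 to 6.78 ± 1.11 CPM and from 98.5 ± 15.0 to 55.6 ± 13.1 CPM (SD, n = 3 mice each; edgeR adjusted p = 0.0117 and 0.000525). Fdps, which makes farnesyl diphosphate, fell from 82.8 ± 12.6 to 48.6 ± 5.30 CPM (SD, n = 3 mice each; edgeR adjusted p = 4.41e-05). Acat2, a cytosolic acetyl-CoA thiolase, fell from 184 ± 20.7 to 125 ± 21.0 CPM (SD, n = 3 mice each; edgeR adjusted p = 0.000876). The exception was Hmgcs1, the synthase ahead of the rate-limiting reductase, which rose from 207 ± 3.35 to 250 ± 7.13 CPM (SD, n = 3 mice each; edgeR adjusted p = 0.0215) and was named after its values were seen. This call, the only 1 higher in the pathway, was lost without any 1 of ctrl mice 2, 9 and 14 and cold mice 4 and 11. Mvk was not called in DESeq2 (adjusted p = 0.123), without ctrl mouse 9 (0.0536) or without cold mouse 11 (0.0673), and Fdps not on flow cell 2 alone (0.109).

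Enzymes that use farnesyl diphosphate for other products gave 0 calls among 5 tested, beside 20.0% called among all tested genes. Their median log2 fold change was -0.49. The farnesyltransferase subunit Fntb had 7.36 CPM in ctrl and 3.57 CPM in cold (edgeR adjusted p = 0.0538), and the geranylgeranyl diphosphate synthase Ggps1 had 15.4 and 9.90 CPM (edgeR adjusted p = 0.0894).

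Among 13 tested genes for enzymes that reduce coenzyme Q, or feed those that do, 2 rose and 5 fell (median -0.09). The share over all tested genes was 10% in each direction. The largest differences by fold were in Sqor, the sulfide quinone oxidoreductase, which fell from 54.5 ± 5.22 to 17.1 ± 3.20 CPM, and Chdh, the choline dehydrogenase, which fell from 21.2 ± 0.34 to 6.93 ± 1.11 CPM (SD, n = 3 mice each; edgeR adjusted p = 4.72e-09 and 9.6e-06). Gpd2, the mitochondrial glycerol phosphate dehydrogenase, fell from 739 ± 41.1 to 556 ± 51.3 CPM (SD, n = 3 mice each; edgeR adjusted p = 0.000164). Etfdh, which hands electrons of fatty acid oxidation to coenzyme Q, rose from 481 ± 54.3 to 595 ± 19.7 CPM (SD, n = 3 mice each; edgeR adjusted p = 0.00513). Its call ended with the muscle covariate (0.0596), without ctrl mouse 9 (0.071) and in DESeq2 (0.051).

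Complex III takes the electrons from reduced coenzyme Q. Of 16 tested genes for its subunits and assembly factors 1 rose and 5 fell, beside 10% of all tested genes in each direction. Their median log2 fold change was -0.11. The mitochondrially encoded mt-Cytb fell from 49736 ± 3714 to 33252 ± 734 CPM (SD, n = 3 mice each; edgeR adjusted p = 4.22e-09). The nuclear subunits Uqcrq and Uqcrc1 fell by 0.36 and 0.27 on the log2 scale (edgeR adjusted p = 0.000127 and 0.00364). The assembly factor Ttc19 rose from 29.9 ± 3.60 to 40.7 ± 1.54 CPM (SD, n = 3 mice each; edgeR adjusted p = 0.0315), and was called in 9 of 16 alternatives, but not without any 1 of ctrl mice 2 and 14 and cold mice 4 and 11, with the muscle covariate, on flow cell 1 alone or in DESeq2. Over these 5 lists, 6 of 52 tested genes rose and 15 fell, beside 10% of all tested genes in each direction. With library totals only, 9 were called higher and 11 lower.

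**Figure D4:**
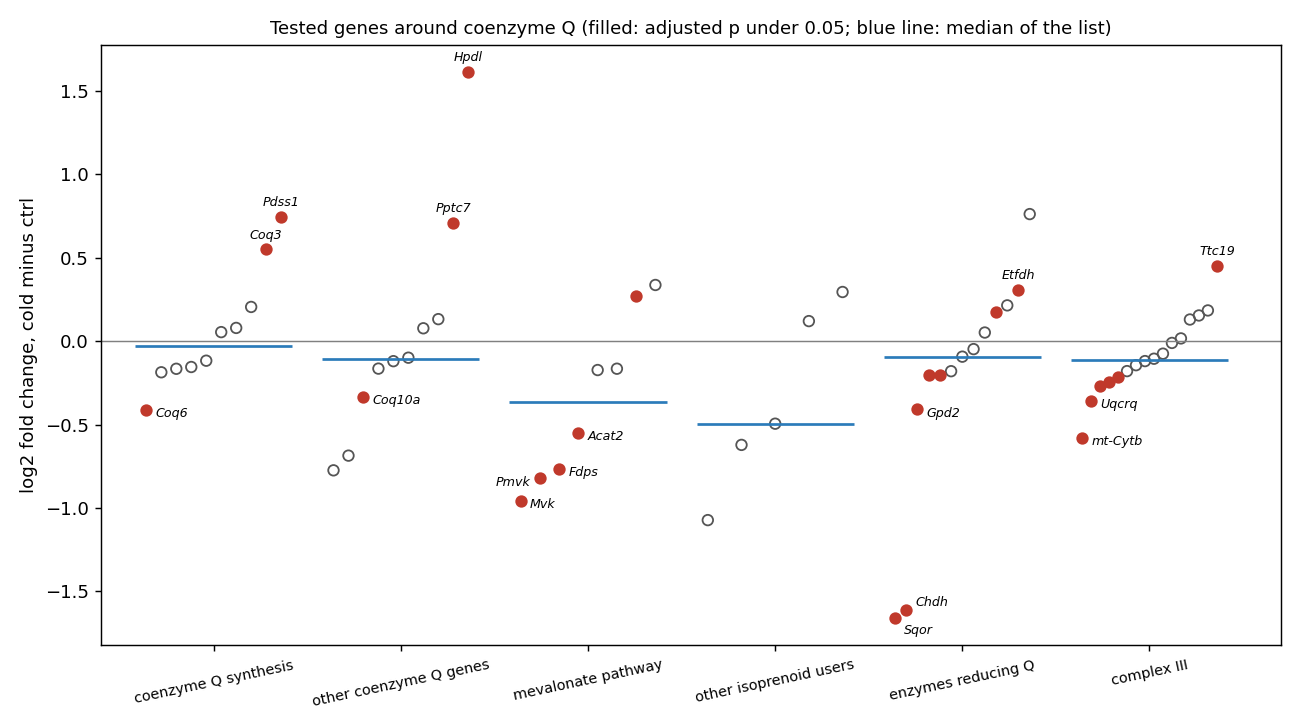
Log2 fold change, cold minus ctrl (vertical axis), of every tested gene in the 10 coenzyme Q genes and in 5 lists around them; filled dots passed the test, names are given for called genes beyond 0.3 in size, and blue lines are medians. The medians run from -0.49 to -0.03; Hpdl is the highest at 1.61, and Sqor and Chdh are the lowest.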

How the data were processed

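Counts were deposited by the authors as whole numbers of reads per annotated transcript, 1 table for each flow cell. Reads had been mapped with minimap2 on GRCm38, per the submitters' processing notes. The sources used here give nothing on its version, the annotation release, the strand setting or how reads that fit several transcripts were counted. The 172 identifiers that matched no GENCODE M21 transcript held 9857 of 11789059 reads (0.084%) and were left out. Counts were summed over both flow cells of each mouse, so n counts mice, and then per gene. Library pairs of 1 group differed by more than sampling noise (chi-square per degree of freedom 1.60 to 3.08).

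Genes and transcripts were tested in edgeR 4.0.16 (R 4.3.3) by glmQLFit with robust estimation and glmQLFTest. Usage was tested by diffSpliceDGE on a glmQLFit without robust estimation. All tests followed TMM and filterByExpr, with Benjamini-Hochberg adjustment over all tested features, called at 0.05. DESeq2 1.42.0 was an alternative. The SE is the log2 fold change over the root of the F statistic, and the 95% interval uses the fit's degrees of freedom. On simulated counts for cold against ctrl, with 8465 genes tested, 78.5% of 2-fold changes and 32.3% of 1.5-fold changes were recovered. Of the genes called there, 7.08% were false. With 11156 transcripts tested, 62.0% and 23.1% of such changes were recovered, and 7.14% of the calls were false. Interval and depth limits cover counting error and the spread between mice only.

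The members and lists were chosen with earlier results of these data known. All 10 members were named, with transcripts of at least 20 reads (at most 3 for a gene, and those called) and, from each other list, up to 4 called genes by size of log2 fold change, or 2 where none was called. Marker lists of further cell types summed, in ctrl and cold mice, to 56.3 to 82.2 and 78.7 to 111 CPM (macrophage), 2.55 to 4.19 and 0.501 to 1.45 (lymphocyte), 190 to 202 and 226 to 246 (endothelium), 229 to 277 and 201 to 257 (fibroblast), 28.4 to 50.0 and 22.0 to 36.7 (Schwann cell) and 1574 to 2915 and 1910 to 2843 (erythroid). Of 5 tested fibroblast markers 2 fell (median log2 fold change -0.70), and of 5 tested endothelium markers 1 rose. The share over all tested genes was 10% in each direction. No tested marker of the other lists named here was called, and no lymphocyte marker was tested. The part of these cell types in the results was not tested.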

Additional observations from a re-analysis of the deposited data

How the results depend on the processing

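With 3 mice in each group, most 1.5-fold changes simulated over all tested genes were missed. The share missed may differ at the members' own depths, for which no simulation was run. Genes that were not called are not shown to be stable. The 2 members called higher, Pdss1 and Coq3, were called under all alternatives, with adjusted p up to 0.0423 and 0.0497 (edgeR or DESeq2). The number called lower, 1, became 0 in DESeq2, 0 with library totals only and 0 on flow cell 2 alone, and ranged from 0 to 2 when single mice were left out. The 2 transcripts called higher became 1 in DESeq2, 1 on flow cell 2 alone and 3 with library totals only, and ranged from 1 to 2 when mice were left out; the 0 called lower ranged from 0 to 1. Over the 5 other lists, the 6 called higher became 2 in DESeq2, 3 on flow cell 2 alone and 2 with the muscle covariate and 9 with library totals only, and ranged from 3 to 7 when mice were left out; the 15 called lower became 9 in DESeq2 and 11 with library totals only. All genes called, 1739, became 931 in DESeq2, 889 on flow cell 2 alone and 1129 with the muscle covariate.

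The log2 fold change changed sign on 1 flow cell for Coq2 (0.033 on flow cell 1; Coq2-201 0.015), Pdss2 (0.15 on flow cell 2; Pdss2-201 0.16) and Coq6-209 (0.037 on flow cell 2). When single mice were left out, it ranged from -0.30 to 0.13 for Coq4 (above 0 without ctrl mouse 9), from -0.38 to 0.16 for Coq4-201 (0.0068 without cold mouse 4), from -0.32 to 0.019 for Coq8a-201 (above 0 without cold mouse 15) and from -4.3e-05 to 0.10 for Coq7-201 (lowest without cold mouse 4). None of these was called with all mice. The difference in the share of Coq8a-217 became 2.59 percentage points on flow cell 2 alone, and that of Coq6-209 -1.47 on flow cell 1 alone and, with single mice left out, -0.187 (without cold mouse 4) to 5.34. The cause was not tested. The labels give no pairing of ctrl and cold mice, so no paired analysis was run.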
